A study of Oryctolagus cuniculus with 20 samples.

Results

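Levels of 5 genes of the elastic fibre and its microfibrils were followed over 5 groups of rabbit vessel samples: FBN1, MFAP5, LTBP2, EMILIN2 and LOXL1. The genes were chosen by name, and their values were summed per gene identifier. All 5 were found among 23669 genes, and all 5 were among the 8657 genes that reached the level needed for testing, at least 1 FPKM in at least 4 libraries. FPKM counts sequenced fragments relative to transcript length and to library size, so levels can be compared between genes.

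The samples came from rabbits (Oryctolagus cuniculus) with a segment of common carotid artery transplanted into a vein. This segment, here called the graft, was taken on day 14 or on day 30. The unoperated carotid of the other side, here called the opposite artery, was taken on the same days. Unoperated vein was the remaining group; its label names the external jugular vein. Each of the 5 groups had 4 libraries of total RNA, which the labels call biological replicates without saying that each is a separate animal, so p-values measure the spread between these samples. No strain, age, genotype or drug was used to define a group. All samples also carry HASMC as a cell line label, although the other labels describe rabbit tissue.

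Elastic fibres give an artery wall its recoil. They consist of cross-linked elastin laid on a scaffold of microfibrils, whose backbone is fibrillin. Microfibrils also bind latent growth factors of the TGF-beta and BMP families, and in arteries the smooth muscle cells and fibroblasts of the wall make most of these proteins. Elastin itself (ELN) and MFAP2 were not matched by symbol in the table and were not analysed here.

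Sums of FPKM over all genes ran from 327806 to 671582 per library, and 6759 to 7740 genes reached 1 FPKM; read numbers are unknown. The spread between libraries was unequal: the SD of log2 values, as a median over 1265 genes that averaged at least 30 FPKM, came to 0.0733 in opposite arteries of day 14, 0.324 in grafts of day 14, 0.198 in opposite arteries of day 30, 0.189 in grafts of day 30 and 0.135 in vein. In each group but the first, 1 library lay close to a weighted mean of the other 3 (replicate 3 of the grafts of day 14, replicate 2 of the opposite arteries of day 30, replicate 4 of the grafts of day 30 and replicate 4 of the vein). From its mixture the library differed by a median of 0.0543 to 0.0729 on the log2 scale, and it is called mixture-like here. It was the closest library of its group. The other libraries differed from their mixtures by 0.110 to 0.356 in grafts of day 14 and 0.130 to 0.235 in opposite arteries of day 30. In grafts of day 30 they differed by 0.152 to 0.180, and in vein by 0.0797 to 0.174. The next closest in these groups was replicate 3 of the vein, at 0.0797, which was not called mixture-like. The 4 libraries of the opposite arteries of day 14 differed from such means by 0.0566 to 0.0600. Calls of the members and other named genes that are lost without the 4 mixture-like libraries, with the opposite arteries of day 14 counted as 1 sample, or with both changes of samples, are named beside their values.

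The members separated into different patterns. Against the opposite artery, EMILIN2 and LOXL1 were higher in the graft on both days and LTBP2 and MFAP5 were lower on both days, while FBN1 was not called on either day. A gene was called where limma's p-value, corrected over the 8657 genes by Benjamini and Hochberg's procedure, was under 0.05. At day 14, 2 of the 5 members were called higher, where 36.5% of all genes were, and 2 were called lower, where 17.0% of all genes were. At day 30 the counts were again 2 higher and 2 lower, against 26.0% and 11.6% of all genes. With 5 members, no result about the members as a group is read from these counts.

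**Figure D1:**
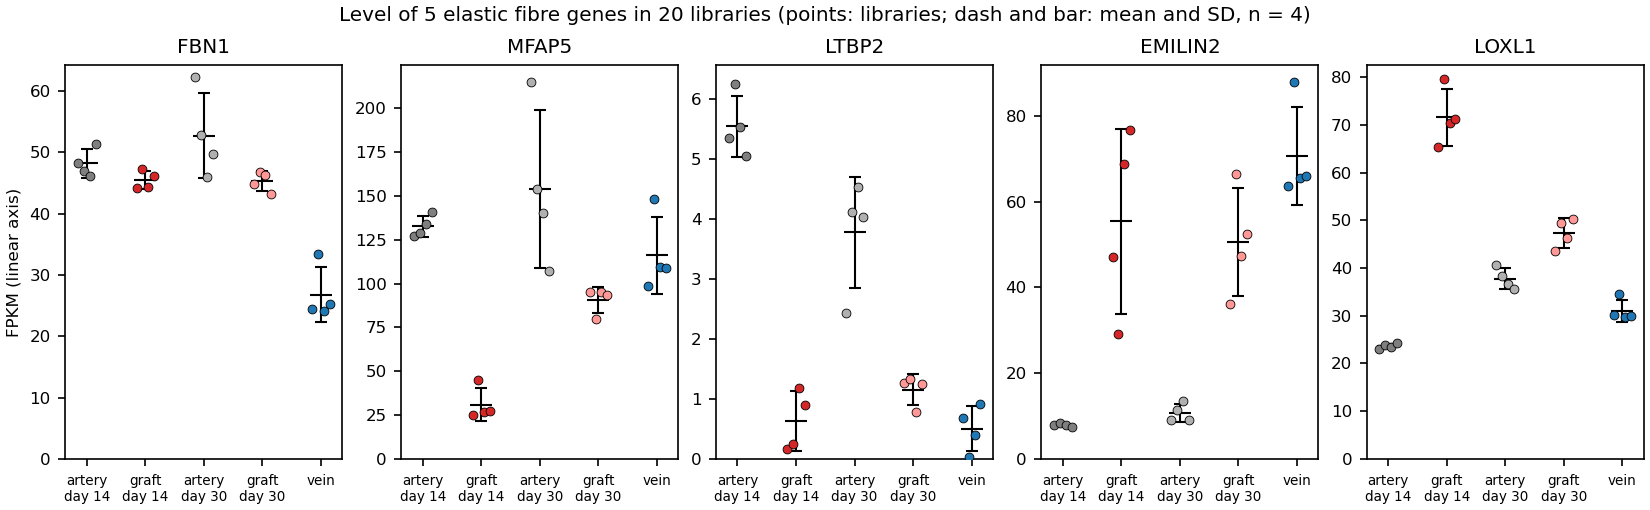
FPKM of FBN1, MFAP5, LTBP2, EMILIN2 and LOXL1 (linear axes from 0) in each of the 20 libraries, by group; points are libraries, and the dash and bar are the mean and SD of 4 libraries. LTBP2 and EMILIN2 show grafts that overlap with vein, for LTBP2 of day 30 only slightly. FBN1 shows grafts level with the opposite arteries, and MFAP5 and LOXL1 of day 14 grafts lie outside both vein and opposite arteries.

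FBN1 (ENSOCUG00000003866) encodes fibrillin-1, the backbone of the microfibril. It was 48.16, 47.01, 46.07 and 51.41 FPKM in the 4 opposite arteries of day 14 and 44.12, 47.23, 44.30 and 46.14 FPKM in the grafts of that day. These ranges overlapped, with the lowest values among the grafts. The log2 difference on the scale of FPKM + 1, used for all differences here, was -0.08 (95% interval -0.29 to 0.13, adjusted p = 0.522).

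At day 30 FBN1 was 62.18, 52.76, 46.00 and 49.72 FPKM in opposite arteries and 44.85, 46.79, 46.23 and 43.26 FPKM in grafts, so 1 opposite artery fell inside the range of the grafts. The difference was -0.21 (95% interval -0.42 to 0.01, adjusted p = 0.124). These results depend on the settings: with median-of-ratios scaling FBN1 was called lower on day 14 (-0.38, adjusted p = 0.00825) and day 30 (-0.41, adjusted p = 0.00747), and with values rescaled to TPM it was called lower on day 30 (-0.47, adjusted p = 0.0310). With libraries weighted by their spread, FBN1 was also called lower on day 30 (-0.24, adjusted p = 0.00304). Between grafts of day 30 and day 14 the FBN1 difference was -0.01 (95% interval -0.22 to 0.21).

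Vein held less FBN1 than either kind of artery. Its values were 24.40, 33.46, 24.17 and 25.18 FPKM, all below the lowest artery or graft library, and replicate 2 stood above the other 3. Against the mean of both groups of opposite arteries, vein was lower by a log2 difference of -0.89 (SE 0.09, adjusted p = 3.2e-07). Grafts stood above vein by 0.75 on day 14 (adjusted p = 1.07e-05) and by 0.75 on day 30 (adjusted p = 2.09e-05).

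MFAP5 (ENSOCUG00000002407), also called MAGP-2, is a small glycoprotein that sits on fibrillin microfibrils. It had the highest mean FPKM of the 5 members in every group but the grafts of day 14. In the opposite arteries of day 14 its values were 127.17, 129.10, 134.12 and 140.54 FPKM, and in the grafts 25.02, 45.12, 26.60 and 27.35 FPKM. Every graft lay below every opposite artery, and graft replicate 2 lay above the other 3 grafts. MFAP5 fell by 2.10 (SE 0.19, adjusted p = 6.45e-08), from a mean of 133 ± 5.97 to 31.0 ± 9.45 FPKM (SD, n = 4 libraries in each group).

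By day 30 the MFAP5 difference was smaller. Opposite arteries of day 30 spread widely, at 214.81, 153.64, 140.14 and 107.27 FPKM, while grafts were at 95.00, 79.80, 95.09 and 93.70 FPKM. The groups still did not overlap, and the log2 difference was -0.71 (SE 0.19, adjusted p = 0.00671). It was not called with the 4 mixture-like libraries left out and the opposite arteries of day 14 counted as 1 sample (-0.72, adjusted p = 0.107).

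Grafts of day 30 held more MFAP5 than grafts of day 14, with no overlap, by 1.56 (SE 0.19, adjusted p = 4.78e-05). The change of the graft difference between the days was itself tested and called, at 1.39 (SE 0.27, adjusted p = 0.00291), and lost its call with the opposite arteries of day 14 counted as 1 sample (1.39, adjusted p = 0.109) and with both changes of samples (1.33, adjusted p = 0.482). For this change of the graft difference, 1 member was called higher and 1, LOXL1, lower, against 5.38% and 7.57% of all genes. Between grafts of the 2 days, MFAP5 was the member called higher and LOXL1 the one called lower, against 8.01% and 8.31% of all genes.

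Vein values of MFAP5 were 98.37, 148.17, 109.40 and 108.90 FPKM, which overlapped with the opposite arteries. The difference of vein from opposite arteries was -0.29 (95% interval -0.64 to 0.06, adjusted p = 0.188). It was called lower with median-of-ratios scaling (-0.47, adjusted p = 0.0483) and with library weights (-0.35, adjusted p = 0.00456). Grafts of day 14 lay below vein by -1.90 (SE 0.19, adjusted p = 4.53e-07). Grafts of day 30 also lay below all vein libraries, and that difference was not called (-0.34, adjusted p = 0.194) except with library weights (-0.25, adjusted p = 0.0467).

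LTBP2 (ENSOCUG00000014077) belongs to the latent TGF-beta binding protein family and binds fibrillin-1 microfibrils. It was the member with the lowest FPKM in all 5 groups. Opposite arteries of day 14 held 5.34, 6.25, 5.53 and 5.05 FPKM, and grafts held 0.17, 0.25, 1.19 and 0.90 FPKM. The groups lay far apart relative to their spread, with a log2 difference of -2.06 (SE 0.22, adjusted p = 4.02e-07). At such low FPKM the added 1 shrinks the difference: the graft mean was 0.113 times the mean of the opposite arteries.

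At day 30 LTBP2 was 2.43, 4.12, 4.53 and 4.03 FPKM in opposite arteries and 1.27, 1.33, 0.78 and 1.25 FPKM in grafts. Again no graft reached the lowest opposite artery, and the difference was -1.13 (SE 0.22, adjusted p = 4.91e-04). The change of the graft difference from day 14 to day 30 was 0.92 (95% interval 0.27 to 1.58, adjusted p = 0.0576) and was not called. It was called with median-of-ratios scaling (adjusted p = 0.0351) and without replicate 3 of the grafts of day 14 (1.08, adjusted p = 0.0297), replicate 3 of the grafts of day 30 (1.01, adjusted p = 0.0493) or replicate 2 of the vein (0.92, adjusted p = 0.0413).

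Vein held 0.68, 0.04, 0.40 and 0.91 FPKM of LTBP2. These values overlapped with both groups of grafts and lay below every opposite artery. With grafts of day 30 the overlap was slight: only the vein library at 0.91 FPKM exceeded the lowest of those grafts, at 0.78 FPKM. Vein was lower than opposite arteries by -1.91 (SE 0.19, adjusted p = 3.76e-07). The grafts' difference from vein was 0.10 on day 14 (95% interval -0.37 to 0.56, adjusted p = 0.760) and 0.55 on day 30 (95% interval 0.08 to 1.01, adjusted p = 0.0653). The difference of day 30 was called without replicate 4 of the vein (0.67, adjusted p = 0.0369) or without replicate 3 of the grafts of day 14 (0.55, adjusted p = 0.0492). With library weights, grafts were called higher than vein on day 14 (0.40, adjusted p = 0.0116) and on day 30 (0.46, adjusted p = 0.0118).

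EMILIN2 (ENSOCUG00000002553) is a secreted glycoprotein of the EMILIN family, whose founding member EMILIN1 lies where elastin meets the microfibril. Opposite arteries of day 14 held 7.91, 8.28, 7.95 and 7.56 FPKM, and grafts 46.99, 29.04, 68.71 and 76.79 FPKM. The grafts varied among themselves, and the lowest of them was still above every opposite artery. EMILIN2 rose by 2.57 (SE 0.24, adjusted p = 7.88e-08), from 7.93 ± 0.294 to 55.4 ± 21.6 FPKM, which is 6.99 times the level of the opposite arteries.

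The EMILIN2 difference was present at day 30 too, at 9.03, 11.31, 13.57 and 9.14 FPKM in opposite arteries and 36.14, 66.36, 47.23 and 52.46 FPKM in grafts. It was 2.12 (SE 0.24, adjusted p = 1.84e-06). Its change from day 14 was not called (-0.45, 95% interval -1.16 to 0.26, adjusted p = 0.412). With library weights that change was called (-0.83, adjusted p = 2.25e-04), and so was the difference between grafts of the 2 days (-0.39, adjusted p = 0.00166), which was -0.07 without weights (adjusted p = 0.887).

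The highest mean of EMILIN2 was in vein, at 63.56, 87.81, 65.60 and 65.99 FPKM, with replicate 2 above the others. Vein exceeded opposite arteries by 2.80 (SE 0.21, adjusted p = 9.4e-09). Grafts overlapped with vein on both days, with differences of -0.43 (95% interval -0.93 to 0.07, adjusted p = 0.162) on day 14 and -0.50 (95% interval -0.999 to 0.005, adjusted p = 0.122) on day 30. The first was called lower without replicate 4 of the grafts of day 14 (-0.61, adjusted p = 0.0480), and the second without replicate 2 of those grafts, which enters it only through the shared spread (-0.50, adjusted p = 0.0412), and with library weights (-0.37, adjusted p = 0.0144).

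LOXL1 (ENSOCUG00000000978) is a lysyl oxidase-like enzyme that cross-links elastin and is needed to renew elastic fibres in adult tissue. Opposite arteries of day 14 held 23.08, 23.89, 23.53 and 24.21 FPKM, and grafts held 65.25, 79.64, 70.30 and 71.20 FPKM. LOXL1 was thus 3.02 times as high in the grafts, a rise of 1.55 (SE 0.08, adjusted p = 4.35e-11).

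At day 30 the opposite arteries were higher and the grafts lower than at day 14. LOXL1 was 40.67, 38.22, 36.61 and 35.58 FPKM in opposite arteries and 43.51, 49.36, 46.28 and 50.35 FPKM in grafts. The groups did not overlap, but the difference had narrowed to 0.32 (SE 0.08, adjusted p = 0.00318). It was not called with median-of-ratios scaling (0.12, adjusted p = 0.292), with TPM (0.06, adjusted p = 0.814), or with both changes of samples (0.30, adjusted p = 0.128).

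Both arms moved toward each other. The graft difference changed by -1.23 between the days (SE 0.11, adjusted p = 2.17e-06), a call lost with both changes of samples (-1.27, adjusted p = 0.114). Among grafts, day 30 was lower than day 14 by -0.58 (adjusted p = 9.85e-05; not called with TPM, -0.38, adjusted p = 0.109). Among opposite arteries, day 30 was higher by 0.65 (adjusted p = 4.22e-05), and LOXL1 was the member called there, where 6.28% of all genes were called higher and 4.45% lower. That call was lost with the opposite arteries of day 14 counted as 1 sample (0.65, adjusted p = 0.0710) and with both changes of samples (0.64, adjusted p = 0.594).

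The other members were not called between opposite arteries of the 2 days. LTBP2 was lower at day 30 without overlap (-0.47, 95% interval -0.93 to -0.01, adjusted p = 0.190), and EMILIN2 was higher without overlap (0.38, 95% interval -0.12 to 0.88, adjusted p = 0.352). Both were called with library weights (LTBP2 -0.38, adjusted p = 0.0492; EMILIN2 0.44, adjusted p = 0.00827). The differences of MFAP5 and FBN1 were 0.17 and 0.12 (adjusted p = 0.658 and 0.523), with overlapping groups.

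LOXL1 in vein was 30.22, 34.45, 29.64 and 29.88 FPKM, between the opposite arteries of day 14 and those of day 30. Its difference from their mean was 0.05 (95% interval -0.09 to 0.19, adjusted p = 0.608). Grafts exceeded vein by 1.18 on day 14 (SE 0.08, adjusted p = 3.14e-09) and by 0.59 on day 30 (SE 0.08, adjusted p = 1.45e-05).

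In vein against opposite arteries, 1 member was called higher (EMILIN2) and 2 lower (FBN1 and LTBP2), where 25.2% and 12.0% of all genes were. For grafts of day 14 against vein, 2 members were called higher (FBN1 and LOXL1) and 1 lower (MFAP5), against 25.9% and 17.5% of all genes. For grafts of day 30 against vein, FBN1 and LOXL1 were called higher, where 19.2% of all genes were; 14.2% of all genes were lower. These comparisons share the same vein and artery libraries, so each gives its own values only.

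The order of group means was different for each member. For FBN1, vein was lowest, and the 4 artery and graft groups above it overlapped with their neighbours in order. For LTBP2 the order was vein, grafts of day 14 and grafts of day 30, each overlapping with the next, then opposite arteries of day 30 and of day 14, which did not overlap with their neighbours. For EMILIN2, opposite arteries of day 14 and then of day 30 were lowest without overlap, and grafts of day 30, grafts of day 14 and vein overlapped in turn. MFAP5 ran from grafts of day 14 to grafts of day 30 to vein without overlap, and vein and both groups of opposite arteries overlapped. For LOXL1 all 5 groups were separate: opposite arteries of day 14, vein, opposite arteries of day 30, grafts of day 30 and grafts of day 14. From the lowest to the highest of the 20 libraries, FBN1 varied 2.57-fold, LOXL1 3.45-fold, MFAP5 8.59-fold and EMILIN2 11.6-fold; LTBP2 ran from 0.04 to 6.25 FPKM.

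Differences between 2 genes of the same library do not depend on how that library was scaled, apart from the added 1 FPKM. The difference of log2(FPKM + 1) of MFAP5 minus that of FBN1 was 1.44 in opposite arteries of day 14 and 1.49 in those of day 30, -0.58 in grafts of day 14, 0.99 in grafts of day 30 and 2.07 in vein. In grafts of day 14 the microfibril-associated gene was thus below its fibrillin in level, and in every other group above it. For LTBP2 minus FBN1 the means were -2.91 and -3.50 in opposite arteries of day 14 and day 30, -4.89 and -4.43 in grafts, and -4.23 in vein. LTBP2 is so low that the added value matters here. With 0.1 FPKM added, the means were -3.10 and -3.79 in opposite arteries, -6.27 and -5.20 in grafts, and -5.78 in vein. The order of vein and grafts of day 30 was thus reversed, and no order between them is read from these means.

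LOX, the lysyl oxidase that gave its name to the family, moved differently from LOXL1. LOXL1 minus LOX was 0.12 in opposite arteries of day 14, 2.51 in grafts of day 14, 0.70 in opposite arteries of day 30, 2.01 in grafts of day 30 and 2.47 in vein. EMILIN2 minus EMILIN1 was -1.78 and -1.31 in opposite arteries of day 14 and day 30, -0.46 and 0.61 in grafts, and 2.15 in vein. EMILIN1 was therefore the higher of the pair in opposite arteries and EMILIN2 the higher in vein.

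**Figure D2:**
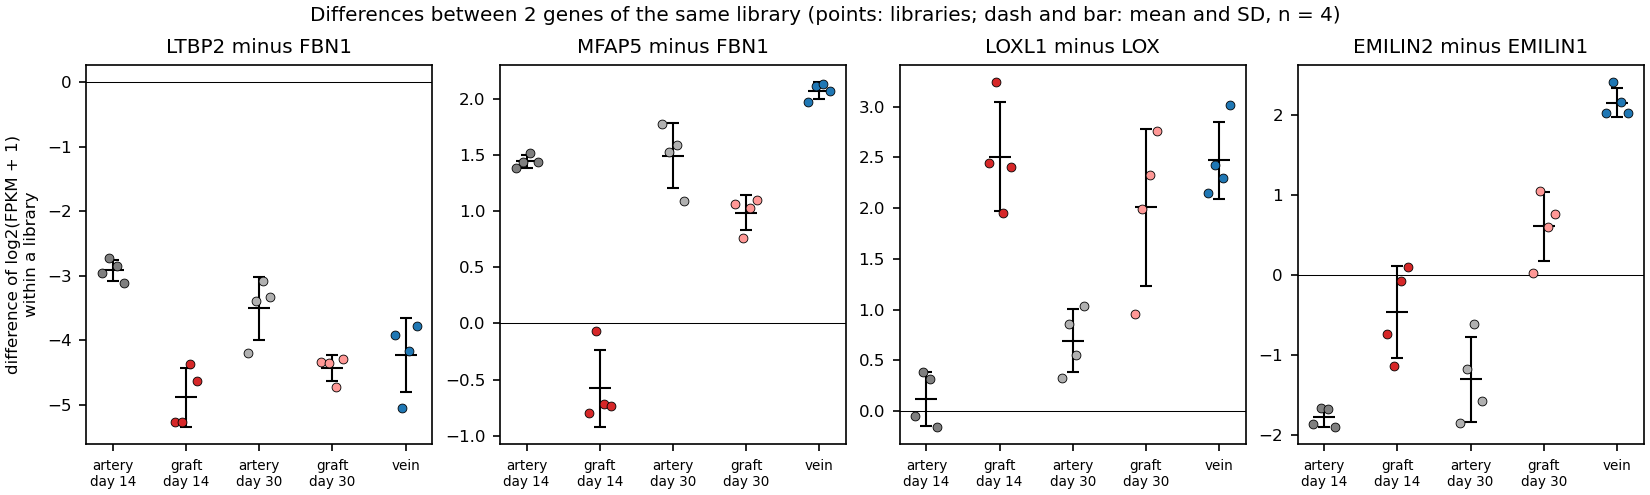
Difference of log2(FPKM + 1) between 2 genes of the same library, for LTBP2 minus FBN1, MFAP5 minus FBN1, LOXL1 minus LOX and EMILIN2 minus EMILIN1, by group; points are libraries, and the dash and bar are the mean and SD of 4 libraries. MFAP5 minus FBN1 is below 0 only in grafts of day 14, and EMILIN2 minus EMILIN1 is highest in vein, at 2.15.

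The members belong to a wider list of 33 elastic fibre and microfibril genes, of which 26 were matched by symbol and 18 reached the level for testing. At day 14, 5 of the 18 were higher and 8 lower in the graft, where 36.5% and 17.0% of all genes were; the median log2 difference was -0.40 against 0.26 over all genes. At day 30, 6 were higher and 8 lower, where 26.0% and 11.6% of all genes were, and the median was -0.28 against 0.18. With both changes of samples 3 were higher and 5 lower at day 30. In vein against opposite arteries, 3 were higher and 9 lower, where 25.2% and 12.0% of all genes were, and the median was -0.72 against 0.14. Leaving the 5 members out, 3 of 13 were higher and 6 lower at day 14, and 4 higher and 6 lower at day 30.

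**Figure D3:**
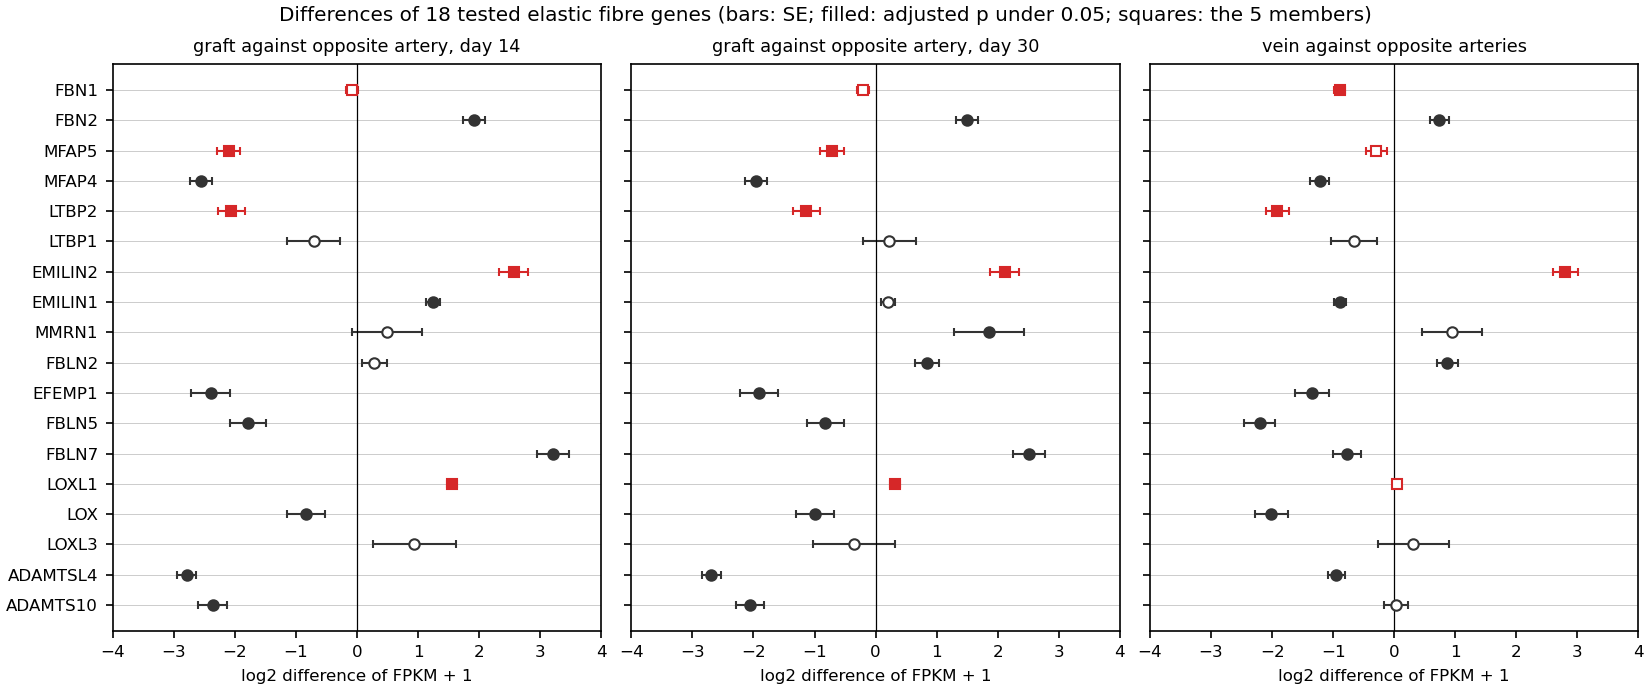
Differences of log2(FPKM + 1) for the 18 tested elastic fibre genes, grafts against opposite arteries on day 14 and day 30 and vein against opposite arteries; bars are limma's SE, filled symbols have an adjusted p under 0.05, and squares are the 5 members. EMILIN2 lies far to the right in all 3 comparisons and LTBP2 to the left, while EMILIN1 and EMILIN2 have opposite signs in vein.

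MFAP4, ADAMTSL4 and ADAMTS10 were among the 6 genes of the list beside the members that were lower at day 14. MFAP4, which binds elastin and fibrillin, was the most abundant gene of the list and went from 2466 ± 58.5 FPKM in opposite arteries of day 14 to 437 ± 167 FPKM in grafts, a difference of -2.56 (SE 0.18, adjusted p = 2.87e-09). It was -1.96 at day 30 (adjusted p = 1.74e-07) and -1.22 in vein against opposite arteries (adjusted p = 7.63e-06). ADAMTSL4, a protein that promotes fibrillin-1 deposition, fell by 2.79 at day 14 and by 2.69 at day 30 (SE 0.16; adjusted p = 1.58e-10 and 8.37e-10). ADAMTS10, which also acts on fibrillin microfibrils, was listed at 0 in all 8 graft libraries and at 1.90 to 7.33 FPKM in the opposite arteries and 3.08 to 5.05 FPKM in the vein; a value listed at 0 can be a failed estimate.

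FBN2, the fibrillin of developing tissue, differed in direction from FBN1. It was 0.298 ± 0.050 FPKM in opposite arteries of day 14 and 4.04 ± 1.32 FPKM in grafts, higher by 1.91 (SE 0.18, adjusted p = 1.15e-07), and it was higher by 1.50 at day 30 (adjusted p = 4.46e-06). FBN2 stayed far below FBN1 in level in every group. Vein was between, at 1.04 ± 0.37 FPKM, above opposite arteries by 0.74 (adjusted p = 0.00127); with both changes of samples this was not called (0.72, adjusted p = 0.127).

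Fibulins, several of which link elastin to microfibrils, went both ways. FBLN5, which tethers elastin to the cell and brings LOXL1 to it, fell by 1.78 at day 14 (SE 0.30, adjusted p = 7.32e-05), and its grafts spread from 22.43 to 104.50 FPKM. At day 30 it was lower by -0.83 (adjusted p = 0.0384), a call lost with the 4 mixture-like libraries left out (adjusted p = 0.0993), with the opposite arteries of day 14 as 1 sample (adjusted p = 0.0692) and without any 1 of the 8 libraries compared (adjusted p from 0.0571 to 0.0759). EFEMP1, fibulin-3, fell by 2.40 and 1.91 (SE 0.32; adjusted p = 5.05e-06 and 1.17e-04). FBLN7 rose from 4.02 ± 0.187 to 45.3 ± 3.24 FPKM at day 14 (3.20, SE 0.26, adjusted p = 1.8e-08) and was higher by 2.51 at day 30 (adjusted p = 7.79e-07). It was low in vein, at 2.90 ± 1.46 FPKM, so grafts exceeded vein by 3.65 and 3.61. FBLN2 was higher in grafts at day 30 (0.84, adjusted p = 0.00302; adjusted p = 0.0660 with both changes of samples) and not called at day 14.

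EMILIN1 rose with EMILIN2 at day 14 and not at day 30. It went from 29.7 ± 1.81 to 72.1 ± 5.61 FPKM at day 14 (1.25, SE 0.11, adjusted p = 5.73e-08), while at day 30 it was 28.2 ± 5.70 FPKM in opposite arteries and 32.2 ± 2.38 FPKM in grafts (0.20, adjusted p = 0.173). The change between the days was -1.05 (SE 0.16, adjusted p = 4.88e-04), a call lost with both changes of samples (-1.03, adjusted p = 0.362). In vein EMILIN1 was lower than in opposite arteries (-0.89, adjusted p = 1.32e-06). MMRN1, a distant relative in the EMILIN family, was higher in grafts of day 30 (1.86, SE 0.57, adjusted p = 0.0151) with overlapping groups, a call lost without opposite artery replicate 1 (adjusted p = 0.0582) or 4 (adjusted p = 0.0564) of that day and with both changes of samples (adjusted p = 0.0790).

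LOX was lower in grafts by -0.83 at day 14 (SE 0.31, adjusted p = 0.0308) and -0.99 at day 30 (adjusted p = 0.0169, groups overlapping), at 12.2 ± 4.10 and 12.2 ± 6.88 FPKM. Both calls were lost under several other settings, at day 14 with the opposite arteries of that day as 1 sample (adjusted p = 0.254), with library weights (-0.34, adjusted p = 0.121) and without any 1 of 4 libraries (adjusted p up to 0.105, without replicate 2 of the grafts). At day 30 the call was lost without the 4 mixture-like libraries (-0.82, adjusted p = 0.0626) and without any 1 of 3 libraries (adjusted p up to 0.0695, without replicate 4 of the grafts). Vein held the least LOX, 4.93 ± 1.44 FPKM. LTBP1, which anchors latent TGF-beta to microfibrils, was not called in any of the 8 comparisons; grafts of day 14 ranged from 9.28 to 80.83 FPKM. LOXL3 was likewise not called and was listed at 0 in some libraries of every group.

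Enzymes that cut elastin and their inhibitors were given with the fibre genes. Of 11 listed enzymes, 7 were tested. All 7 were higher in grafts on both days, where 36.5% of all genes were at day 14 and 26.0% at day 30. Their median log2 difference was 3.80 at day 14 and 2.46 at day 30, against 0.26 and 0.18 over all genes. MMP12, macrophage elastase, reached 374 ± 148 FPKM in grafts of day 14 and 252 ± 147 FPKM in those of day 30, while no opposite artery or vein library exceeded 0.21 FPKM. MMP14, a membrane-bound metalloproteinase, rose by 3.80 at day 14 and 2.46 at day 30 (SE 0.14 each), and MMP9 by 5.88 and 4.53 (SE 0.36 each). CTSK, cathepsin K, was the most abundant of the enzymes in every group and kept a smaller difference at day 30 (0.68, adjusted p = 0.0193), which was not called with either other scaling (adjusted p = 0.0614 and 0.380), without the 4 mixture-like libraries (adjusted p = 0.0779) or without replicate 2 of the grafts (adjusted p = 0.0677).

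Of 8 listed inhibitors, 3 were tested. TIMP2, SERPINA1 and PI3 were not matched by symbol, and TIMP1 and A2M did not reach the level for testing. TIMP1 was listed at 0 in all opposite arteries and all grafts of day 14, which can be a failed estimate. No result about inhibitors as a whole is read from the 3 tested. TIMP3 fell by 1.67 at day 14 and by 1.31 at day 30 (SE 0.23, adjusted p = 9.41e-06 and 2.24e-04). CST3, cystatin C, which inhibits cathepsins, was lower by -1.13 at day 30 (adjusted p = 2.68e-04). At day 14 it was -0.52 (adjusted p = 0.0403), a call lost with the opposite arteries of that day as 1 sample (0.315), without the 4 mixture-like libraries (-0.43, adjusted p = 0.172), with only the groups compared (0.134), and without any 1 of 6 of the 8 libraries compared (0.0608 to 0.159). TIMP4 was not called on either day. Of 11 tested fibrillin-bound growth factors and integrins, 7 were lower at day 14 and 3 at day 30, where 17.0% and 11.6% of all genes were. At day 14, BMP4, ITGAV, ITGB1 and ITGB8 lost their call with the opposite arteries of that day as 1 sample (adjusted p = 0.122, 0.120, 0.142 and 0.164), and ITGB5 and ITGA5 with both changes of samples (adjusted p = 0.0528 and 0.0732), which left ITGA8. ITGA8, a partner in an RGD-binding integrin, was 455 ± 2.11 FPKM in opposite arteries of day 14 and 12.2 ± 3.53 FPKM in grafts, a fall of 5.15 (SE 0.22, adjusted p = 7.67e-12). ITGB5 and ITGA5 fell by 0.99 and 0.79 at day 14 and by 1.40 and 1.65 at day 30.

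Markers of several cell types moved with the groups, and their part in the results above was not tested. For the counts of markers below, 36.5% of all genes were called higher and 17.0% lower in grafts at day 14. At day 30 these shares were 26.0% and 11.6%. The shares are those without changes of samples. In bulk tissue, fewer cells of a type and less RNA per cell cannot be told apart. A marker listed at 0 can also be a failed estimate. Of 7 tested smooth muscle markers, 6 were lower in grafts at day 14 and 7 at day 30; their summed level was 8398 to 8927 FPKM in opposite arteries of day 14, 623 to 941 in grafts of day 14, 6160 to 8827 in opposite arteries of day 30, 1368 to 1802 in grafts of day 30 and 3658 to 3959 in vein, with ACTA2 and TAGLN highest and SMTN at 0 in all groups. MFAP5 in vein overlapped with that of the opposite arteries, while the sums of vein lay below theirs. A link between MFAP5 and these markers was not tested.

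Fibroblast and adventitia markers summed to 1321 to 1488 FPKM in opposite arteries of day 14, 507 to 803 in grafts of day 14, 1050 to 2039 in opposite arteries of day 30, 1289 to 1437 in grafts of day 30 and 2337 to 2537 in vein. Of 8 tested, 1 was higher and 3 lower at day 14, and 2 were higher at day 30; DCN and PI16 were among the highest, and SCARA5 was at 0 in all groups. The grafts of day 14, with the lowest of these sums, were also the group with the lowest MFAP5. Any link between the sums and MFAP5 was not tested.

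Macrophage markers, of which CTSS is also in the list of elastin-cutting enzymes, were higher in grafts for 7 of 8 tested on both days. Their sums were 21.2 to 25.2 FPKM in opposite arteries of day 14, 341 to 828 in grafts of day 14, 26.2 to 48.6 in opposite arteries of day 30, 276 to 576 in grafts of day 30 and 62.8 to 138 in vein. CD68 and AIF1 were listed at 0 in all opposite arteries and vein, which can be a failed estimate. EMILIN2 of vein overlapped with that of the grafts, while the macrophage sums of vein lay below theirs. Whether EMILIN2 and these markers are linked was not tested. Endothelial markers summed to 58.6 to 61.7 FPKM in opposite arteries of day 14, 134 to 401 in grafts of day 14, 76.0 to 169 in opposite arteries of day 30, 393 to 443 in grafts of day 30 and 516 to 626 in vein. Of 8 tested, 5 were higher and 1 lower in grafts at day 14 and 6 higher at day 30. PECAM1 was listed at 0 in all opposite arteries, which can likewise be a failed estimate.

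The remaining lists were of cells that a vessel sample can hold beside its wall. T cell markers were higher in grafts for 5 of 5 tested on both days, with sums of 7.91 to 26.4 FPKM in grafts and at most 7.49 elsewhere. B and plasma cell markers were higher for 3 of 3 at day 14 and 2 of 3 at day 30, with JCHAIN highest, and adipocyte markers for 2 of 3 on both days. Skeletal muscle markers were lower for 2 of 2 on both days. In opposite arteries of day 14 their median sum was 417 FPKM, with TCAP at 404 FPKM and CKM next at 11.3 FPKM. TNNC2 and MYL1 of that list were at 0 in all opposite arteries, so the sum rests on TCAP. Whether these samples held skeletal muscle was not tested. Schwann cell and nerve markers were lower for 6 of 6 at day 14 and 4 of 6 at day 30. Cartilage and bone markers had 1 of 3 higher and 1 lower at day 14, and 1 lower at day 30. With both changes of samples, the calls at day 14 came down to 1 lower of 8 fibroblast, 4 higher of 8 macrophage, 3 higher of 8 endothelial, 3 of 5 T cell, 1 of 3 B and plasma cell, 1 of 3 adipocyte, 1 lower of 2 skeletal muscle and 4 lower of 6 Schwann cell and nerve markers, and the cartilage and bone calls were lost. At day 30 they came down to 1 higher fibroblast, 6 macrophage, 3 endothelial and 1 adipocyte marker and 2 lower Schwann cell and nerve markers. The cartilage and bone call of day 30 was lost as well, also with only the 4 mixture-like libraries left out.

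For each member, the genes with the most similar course were found by Pearson correlation of log2(FPKM + 1) over the 20 libraries among genes with a mean of at least 5 FPKM. The libraries fall into 5 groups, so r mainly reflects the group means, and it is given as a description. FBN1 was closest to COL8A1 (r = 0.925), a short-chain collagen of vessel walls, EDIL3 (0.920), RPL5 (0.913) and FOXS1 (0.880), and farthest from GUCY1A2 (-0.930) and GUCD1 (-0.916). RPL5, a ribosomal protein gene, was listed at 0 in all vein libraries, which can be a failed estimate, and its Spearman rho with FBN1 was 0.450. MFAP5 was closest to EPYC (0.957) and PODN (0.953), both small leucine-rich proteoglycans, CAVIN1 (0.950) and MGP (0.934), an inhibitor of calcification, and farthest from SRSF9 (-0.913) and TUBA4A (-0.912).

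LTBP2 was closest to SESTD1 (0.952), BAG3 (0.950), XYLT1 (0.949) and DIAPH2 (0.949), and among the farthest genes was ORAI1 (-0.944). EMILIN2 was closest to RAB8B (0.954), STAB1 (0.950), a scavenger receptor, PEX7 (0.948) and DYNLT2B (0.947), and farthest from ITGA2B (-0.973) and OLFM3 (-0.972). LOXL1 was closest to TMEM183A (0.972), PCNA (0.968), the sliding clamp of DNA replication, LDHA (0.966) and NME2 (0.956), and farthest from EIF4EBP2 (-0.974) and CAMK2G (-0.957). Among the members themselves, r was highest in size for LTBP2 with EMILIN2 (-0.885) and MFAP5 with LOXL1 (-0.783), and it was 0.02 for FBN1 with MFAP5.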

How the data were processed

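The labels give TRIzol extraction of total RNA and paired-end sequencing on a NovaSeq X Plus. The submitters' processing notes name fastp, HISAT2, StringTie, RSEM and DESeq2; versions and the genome build are not given in the sources used here. Values were deposited by the authors as FPKM per transcript, without the read counts, so depth and counting error are unknown. FPKM were summed over transcripts per gene identifier (24964 rows, 23669 genes); FBN1 had 2 transcripts, 1 of them at 0 throughout. Of the genes tested, 6837 were named in the table, 615 through RefSeq and 1205 had no symbol.

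limma 3.58.1 (R 4.3.3) fitted 1 mean per group to log2(FPKM + 1) over all 20 libraries, with variances moderated along the mean level, for the 8657 genes that reached 1 FPKM in 4 or more libraries. Tests were two-sided, Benjamini-Hochberg adjustment covered every tested gene, and the threshold was 0.05. The procedure was tested on simulated data in which each gene had the same spread in every group. That simulation cannot show how the tests behave with the unequal spread and the mixture-like libraries of these data. Summaries used Python 3.11.15. Alternatives were: pseudocount 0.1; filter at 5 FPKM; no filter; scaling by median of ratios or to TPM; only the groups compared; library weights (limma's estimate of them stopped before converging); the replicate number as a block; each library left out; opposite arteries of day 14 as 1 sample; and 4 mixture-like libraries left out. Mixtures were weighted means of the 3 remaining libraries of the same group, in weight steps of 0.05.

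The members, lists, tests and alternatives were chosen with earlier results of these data known. Named genes were the members, LOX, EMILIN1, FBN2 and LTBP1, up to 6 other elastic fibre genes per comparison and up to 3 of each related list with the smallest adjusted p, and per member the 4 highest and 2 lowest correlated genes; CTSK, CTSS and marker genes were named as list members after their values were seen. A gene that this rule names is not reported here.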

Additional observations from a re-analysis of the deposited data

Results flagged for a closer look

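In 6 of the 25 sets of 4 values of the members, and in 7 of 45 sets when LOX, EMILIN1, FBN2 and LTBP1 are added, 1 library stood apart, with a gap to its neighbour that was large relative to the whole range (above Dixon's critical value); chance gives about 1 in 20 such sets. Replicate 2 of the vein was the highest for FBN1 (ratio 0.891), EMILIN2 (0.9) and LOXL1 (0.879). Replicate 2 of the grafts was the highest of day 14 for MFAP5 (0.884), and replicate 2 of the grafts of day 30 was the lowest for MFAP5 (0.909). Replicate 3 was the lowest graft of day 30 for LTBP2 (0.855), and replicate 1 the lowest opposite artery of day 30 for LTBP1 (0.85). The graft difference changed between day 14 and day 30 for MFAP5 (1.39 on the log2 scale), LOXL1 (-1.23) and EMILIN1 (-1.05), each by limma's test of the change itself.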

How the results depend on the processing

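Without read counts, depth sets an unknown limit for low genes such as LTBP2. Of 1240 member results recomputed under the alternatives, 1190 kept direction and call, 22 gained a call, 10 lost one and 18 changed sign, all 18 among differences that were not called. Many of the 1240 left out a library of a group outside the comparison. There the difference itself cannot change and only the shared spread can, so the 1190 do not measure robustness. For the change between grafts of the 2 days, FBN1 became 0.0336 with median-of-ratios scaling, 0.20 with TPM, 0.0042 without the 4 mixture-like libraries and 0.0042 with both changes of samples (-0.0208 to 0.0161 leaving out single libraries). EMILIN2 became 0.14 with TPM, 0.0352 without the 4 libraries and 0.0352 with both (-0.34 to 0.12 leaving out single libraries). Leaving out single libraries, MFAP5 between opposite arteries ran from -0.0047 to 0.33 and LTBP2 in grafts of day 14 against vein from -0.0711 to 0.2369. LOXL1 in vein was -0.13 with median-of-ratios scaling, and EMILIN2 in grafts of day 14 against vein was 0.0191 with library weights. The causes were not tested.

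With opposite arteries of day 14 as 1 sample, which is then assumed to vary like the other groups, limma's calls over all genes went from 4634 to 2499 for grafts at day 14, from 1121 to 93 for the change of the graft difference, from 929 to 29 between opposite arteries and from 3214 to 2036 for vein against opposite arteries. Without the 4 libraries they were 381 for the change, 424 in place of 1412 between grafts, 433 between opposite arteries and 1918 in place of 2894 for grafts of day 30 against vein. With both, they were 1641 at day 14, 1758 in place of 3253 at day 30, 7 for the change, 88 between grafts, 8 between opposite arteries, 1110 for vein, 2077 in place of 3750 for grafts of day 14 against vein and 1285 for grafts of day 30 against vein. Library weights gave 5082 at day 30, 4257 for the change, 5299 between grafts, 2963 between opposite arteries, 5853 for grafts of day 14 and 4655 for grafts of day 30 against vein. TPM gave 557 for the change and 828 between grafts, only the groups compared gave 321 between grafts, and leaving out single libraries gave 918 (without replicate 1 of the grafts of day 30) to 1658 between grafts.

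Of the 18 elastic fibre genes, 14 were called at day 30 and 8 with both changes of samples. For the change of the graft difference 3 were called, 12 with weights, 3 to 5 leaving out single libraries (5 without replicate 1 of the grafts of day 14), and 0 by limma with both changes of samples, where 4 had an unadjusted p under 0.05. Between grafts 6 were called, 12 with weights, and 3 without the 4 libraries or with both changes. Between opposite arteries 1 was called, 2 with a filter of 5 FPKM, 6 with only the groups compared, 8 with weights, 0 with opposite arteries of day 14 as 1 sample and 0 with both changes (1 with an unadjusted p under 0.05 in each), and 1 to 3 leaving out single libraries (3 without replicate 2 of the grafts of day 14; 2 without replicate 1 of the opposite arteries or replicate 2 of the grafts of day 30). For grafts of day 30 against vein 10 were called and 16 with weights.

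Median-of-ratios scaling moved the median log2 difference of all genes by -0.22 at day 14, -0.15 at day 30 and -0.13 for vein, and the share of higher calls from 68.2% to 52.6%, 69.3% to 53.5% and 67.8% to 50.6%; for the change it went from 41.6% to 52.9% and between opposite arteries from 58.6% to 47.5%. TPM moved the median by -0.17 at day 14, -0.20 at day 30, 0.17 between grafts, 0.20 between opposite arteries and -0.26 for grafts of day 14 against vein, with shares of 56.4%, 50.3%, 90.6% (from 49.1%), 86.1% and 35.6% (from 59.7%), and 51.7% for the change and 46.8% (from 57.5%) for grafts of day 30 against vein.

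The labels number the replicates alike in grafts and opposite arteries. Deviations of same-numbered samples from their group means correlated at 0.256, -0.295, -0.270 and 0.058 on day 14. On day 30 the correlations were -0.080, -0.371, 0.055 and -0.130. Pairs with different numbers ran from -0.462 to 0.451 on day 14. Deviations from means of 4 libraries cannot decide whether same-numbered samples came from the same animal. No pairing was assumed in the main tests. With the replicate block, 4573 genes were called at day 14 and 3186 at day 30, and no member's call changed.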
